A study of Homo sapiens with 8 samples.

Results

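The effect of a SPIB knockdown on RNA levels in detached H1703 cells was measured by comparing the 2 libraries of floating cells with a SPIB knockdown with the 2 libraries of floating cells with a luciferase knockdown. These are 4 of the 8 libraries of the series, and they were chosen by their labels alone. H1703 is an established human lung cancer cell line, which the labels call squamous cell carcinoma. The detached SPIB-knockdown cells had lost attachment and carried a knockdown of SPIB. Their detached control had also lost attachment and carried a knockdown aimed at luciferase, a firefly gene that human cells lack. By its label the control knockdown therefore has no target gene in these cells. The other 4 libraries are the attached SPIB-knockdown cells and the attached control cells, 2 each. A note of 12 hours of floating stands with every sample, the attached ones included. The sources used here do not give the knockdown reagent or the number of clones. The series text calls the 2 libraries of a group biological repeats and says no more of separate cultures, and the p-values measure no other spread than that between these libraries.

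SPIB is a transcription factor of the ETS family, best known from B lymphocytes, and ETS factors bind DNA at a GGAA core. Anoikis is the cell death that follows when an attached cell loses its matrix. The title of the series names resistance to anoikis and the autolysosome, the compartment formed when an autophagosome, which encloses cell material, fuses with a lysosome, which digests it.

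The promoters of 3 genes that fell with the knockdown are shown because the knocked-down factor is a DNA-binding protein. GPX4 and INA are 2 of the 4 calls of at least 2-fold, and LIPA encodes a lysosomal enzyme. Each sequence runs from 250 bases before a listed transcription start to 50 bases after it, from RefSeq on GRCh38.p14. It reads 5′ to 3′ on the strand of the gene. Other starts of these genes were not looked at, and the windows were not placed on the hg19 loci of the expression values. A window may thus miss the start that these cells use most. Capitals mark the letters GGAA or, for a match on the other strand, TTCC.
GPX4 promoter, chr19:1104400-1104699, plus strand: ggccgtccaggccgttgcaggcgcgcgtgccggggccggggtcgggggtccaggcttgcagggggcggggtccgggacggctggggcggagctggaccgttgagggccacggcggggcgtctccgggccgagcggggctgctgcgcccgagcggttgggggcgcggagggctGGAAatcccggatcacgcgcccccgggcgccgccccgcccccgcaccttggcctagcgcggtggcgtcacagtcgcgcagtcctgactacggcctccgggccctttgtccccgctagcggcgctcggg
INA promoter, chr10:103276888-103277187, plus strand: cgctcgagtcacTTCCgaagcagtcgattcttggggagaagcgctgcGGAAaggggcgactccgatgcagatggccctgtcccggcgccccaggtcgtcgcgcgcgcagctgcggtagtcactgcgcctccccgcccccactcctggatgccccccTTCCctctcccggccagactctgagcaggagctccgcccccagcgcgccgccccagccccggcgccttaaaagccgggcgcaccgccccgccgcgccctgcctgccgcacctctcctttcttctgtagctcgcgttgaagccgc
LIPA promoter, chr10:89251726-89252025, minus strand: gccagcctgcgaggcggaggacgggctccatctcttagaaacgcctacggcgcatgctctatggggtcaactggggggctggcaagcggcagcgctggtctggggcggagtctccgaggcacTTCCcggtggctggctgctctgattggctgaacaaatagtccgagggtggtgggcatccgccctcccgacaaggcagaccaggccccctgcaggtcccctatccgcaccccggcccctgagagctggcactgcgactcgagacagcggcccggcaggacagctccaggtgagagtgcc
GPX4 and LIPA each held 1 such core in this window and INA held 3. The core is common: among the 62 fallen genes with a promoter in the table, out of 89, 59 (95.2%) held GGAA on either strand, beside 95.1% of the 8183 tested genes with a promoter. The longer word GAGGAA, which contains the core, was held by 17 of the 62 (27.4%), beside 27.1% of the tested genes. The word CGGAAG, which also contains the core and occurs once in the INA window, was held by 14 of the 62 (22.6%), beside 32% of the tested genes. None of these shares was tested.

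Expression is given as FPKM, fragments per kilobase of transcript and per fixed number of mapped fragments, a level scaled by transcript length. FPKM summed to between 707883 and 786285 per library, and 13022 to 13283 loci reached 1 FPKM. Read depth, estimated from low values relative to attached control replicate 1, was 1.22 and 0.898 in the detached knockdown libraries and 1.26 and 0.951 in the detached control libraries. The highest locus of the tables, a mitochondrial one, is listed below 10 FPKM in replicate 1 of both detached groups and 2 attached libraries. Among the 4 detached libraries the first principal component (44% of the variance) parted replicate 1 from replicate 2, and the second (31.4%) parted knockdown from control. Replicates differed by a median of 0.106 log2 in detached knockdown cells and 0.101 log2 in detached control cells.

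Markers of the labelled cell type that could be read were mostly below 1 FPKM. Of 8 squamous markers, 3 stand only in loci merged with other symbols and could not be read. Of the 5 with a locus of their own, SOX2 alone reached 1 FPKM. It was at 2.60 and 1.98 FPKM in detached knockdown cells, against 2.05 and 2.68 FPKM in detached control cells. TP63, which defines squamous cells, lay at 0.318 and 0.033 FPKM in detached knockdown cells and at 0.055 and 0.072 FPKM in detached control cells. Of 5 lung adenocarcinoma markers with a locus of their own, KRT7 alone reached 1 FPKM. B lymphocyte markers summed to 0.96 and 0.96 FPKM in knockdown cells and to 0.80 and 1.88 FPKM in control cells over 11 genes, with PAX5 and MS4A1 listed at 0 in both knockdown libraries. Over 10 markers of myeloid cells and T lymphocytes the sums were 4.43 and 7.18 FPKM in knockdown cells and 5.55 and 8.87 FPKM in control cells. The 7 fibroblast markers summed to 118 and 113 FPKM in knockdown cells and to 142 and 138 FPKM in control cells. THY1, a surface glycoprotein, made up most of that sum and did not pass the test (log2 fold change −0.30 ± 0.07, limma, adjusted p = 0.156). The part of fibroblast-like cells in the results was not tested. In bulk RNA fewer cells of a type and less RNA per cell cannot be told apart.

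SPIB itself has no locus of its own in the tables. Its value is merged with that of POLD1, which encodes a subunit of a DNA polymerase, and of a clone-named gene. That locus had 41.8 and 44.3 FPKM in detached knockdown cells, against 44.9 and 49.8 FPKM in detached control cells (log2 fold change −0.13 ± 0.08, limma, adjusted p = 0.574). The share of SPIB in it is unknown, so the knockdown could not be checked, and the groups go by their labels. Whether a change below comes from loss of SPIB or from another effect of the knockdown reagent was not tested.

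Many more genes passed the test as lower in detached knockdown cells than as higher. Of 13438 genes tested, 99 (0.737%) had an adjusted p under 0.05, of which 89 (0.662%) fell and 10 (0.0744%) rose. GPX4 fell the most, and FAM174A, INA and NFE2L3 followed among genes with a symbol of their own, while no increase reached 2-fold. Only 4 calls were at least 2-fold and all of these were lower. The call that ranked second in size is the clone-named locus RP11-490M8.1, at 0 and 0.125 FPKM in detached knockdown cells, against 1.82 and 1.85 FPKM in detached control cells, and it is given no fold change since it is near 0. Most changes were small: 48 of the 89 fallen genes lay within 0.5 on the log2 scale, with a median of −0.49 over the 89, and the risers had a median of 0.35. Called genes were also well expressed, with a median level of 60.3 FPKM for those that fell and 176 FPKM for those that rose. The median of all tested genes was 12.7 FPKM. Called genes had smaller standard errors too, with a median of 0.052 against 0.111 for all tested genes, which makes a call easier. Whether the effect itself varies with the level was not tested.

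The test was limma on log2(FPKM + 1), fitted to all 8 libraries with a shared spread, two-sided, with Benjamini-Hochberg adjustment over all tested genes. Fold changes are on this scale, which understates changes of low genes, and are given with their standard error. Knockdown and control libraries did not overlap for any of the 99 called genes, as was so for 44% of all tested genes. The count of calls rests on few libraries. It was 32 without detached knockdown replicate 1, 33 without detached knockdown replicate 2, 10 without detached control replicate 1 and 29 without detached control replicate 2, and 57 and 59 without attached control replicates 1 and 2. GPX4, INA, SEPT2, EI24, NOMO1, PADI2, TMED2, ENAH and CD9 kept their call without each of the 8 libraries. Every other called gene lost it without at least 1, and most lost it in each fit that left out a detached library. SEP15, HSPA5, CANX, LAMP2, CLDN1, RPS12, FGFR3, DDR1, PVRL2, LASP1, SCD and ELOVL5, described below, lost it without each library in turn.

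GPX4 encodes the selenoprotein that reduces lipid peroxides in membranes and so holds back ferroptosis, an iron-dependent cell death. It had 139 and 140 FPKM in detached knockdown cells, against 430 and 435 FPKM in detached control cells (XLOC_024413, chromosome 19, 1103936 to 1106811, hg19). The decrease was 3.08-fold on FPKM + 1, with a log2 fold change of −1.62 ± 0.03 (limma, adjusted p = 2.01e-06), and replicates within each group differed far less than the groups. In attached cells GPX4 was at 126 and 129 FPKM with the knockdown and at 411 and 410 FPKM in control cells. Over all settings tried, its log2 fold change in detached cells lay between −1.63 and −1.58 and its call held.

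Other selenoprotein genes mostly gave no call. Beside each list's median log2 fold change stands its range over the fits with 1 library left out. For every list, the shares to set beside its counts are 0.737% called and 50% lower over all tested genes. Of 13 tested selenoprotein genes 2 fell and none rose, with a median of −0.02 (range −0.08 to −0.02), where the median of all tested genes was 0.00 and 50% of them were lower. The second that fell was SEP15, a selenoprotein of the endoplasmic reticulum, at 70.8 and 68.1 FPKM in knockdown cells and 87.0 and 88.5 FPKM in control cells (−0.33 ± 0.05, adjusted p = 0.0286). TXNRD1, a thioredoxin reductase, stood at 650 and 703 FPKM with the knockdown and at 648 and 674 FPKM in control cells, and these libraries overlap. Among 6 genes of selenoprotein synthesis none passed the test.

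Among the antioxidant and iron genes near GPX4 in function, the calls were single genes, all of them lower. NQO1, a quinone reductase and target of the oxidative stress factor NRF2, had 457 and 456 FPKM in detached knockdown cells and 568 and 547 FPKM in detached control cells (−0.29 ± 0.03, limma, adjusted p = 0.00862). FTH1, the ferritin heavy chain that stores iron, had 1870 and 1726 FPKM in knockdown cells and 2149 and 2180 FPKM in control cells (−0.27 ± 0.04, adjusted p = 0.0375). Both are among 20 tested NRF2 targets, of which 2 fell and none rose (median −0.11, range −0.122 to −0.105). The ferroptosis list, which does not hold GPX4, had 1 decrease, FTH1, among 15 tested members (median −0.13, range −0.16 to −0.06). SLC7A11, the cystine transporter that feeds glutathione synthesis, was at 12.5 and 12.0 FPKM with the knockdown and 11.5 and 11.4 FPKM in control cells. Of 15 glutathione enzymes GPX4 alone passed (median 0.04, range −0.03 to 0.05). The locus that merges FTL, the ferritin light chain, with the apoptosis gene BAX also fell, by 0.26 on the log2 scale, and its genes cannot be told apart.

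**Figure D1:**
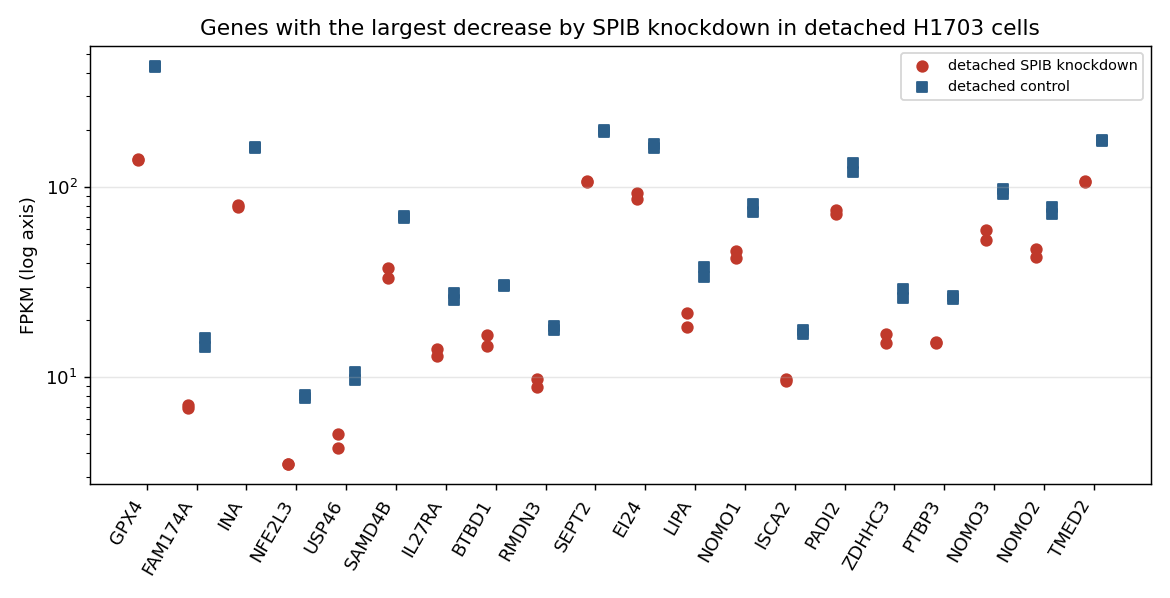
FPKM on a log axis for the 20 named genes with the lowest log2 fold change by SPIB knockdown in detached cells. Each gene has 2 red circles for the detached SPIB-knockdown libraries and, to their right, 2 blue squares for the detached control libraries. In each of the 20 genes both circles lie below both squares, from GPX4, at 139 and 140 FPKM against 430 and 435 FPKM, to TMED2, at 108 and 106 FPKM against 178 and 176 FPKM.

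The remaining large decreases came from genes of varied function. INA encodes alpha-internexin, an intermediate filament protein best known from neurons. It had 80.4 and 78.8 FPKM in detached knockdown cells and 160 and 162 FPKM in detached control cells (−1.01 ± 0.04, limma, adjusted p = 0.000202, chromosome 10, 105034959 to 105050147, hg19). It was the only call among 14 tested intermediate filament genes with a locus of their own, which had a median of −0.13 (range −0.17 to −0.04). The locus that merges the keratin gene KRT17 with JUP also fell, by 0.75 on the log2 scale, and its genes cannot be told apart. FAM174A fell by 1.02 on the log2 scale, to 6.86 and 7.17 FPKM in knockdown cells, against 16.1 and 14.4 FPKM in control cells. NFE2L3, a transcription factor related to NRF2, was low in all libraries, at 3.48 and 3.50 FPKM with the knockdown and 7.75 and 8.11 FPKM in control cells (−0.99 ± 0.10, adjusted p = 0.00844). SEPT2, a septin that forms cytoskeletal filaments, had 106 and 107 FPKM in knockdown cells, against 195 and 199 FPKM in control cells (−0.87 ± 0.04, adjusted p = 0.000202).

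A group of these genes acts in or on the endoplasmic reticulum and secretory pathway; it was picked after their values were seen and is given without a count. EI24, a p53-induced membrane protein of the endoplasmic reticulum that takes part in autophagy, had 93.2 and 86.3 FPKM in detached knockdown cells and 168 and 161 FPKM in detached control cells (−0.87 ± 0.05, limma, adjusted p = 0.00106). TMED2, a cargo receptor of vesicles between the endoplasmic reticulum and the Golgi, was lower by the test as well (−0.72 ± 0.04, adjusted p = 0.000821). NOMO1, NOMO2 and NOMO3, which encode near-identical proteins of the endoplasmic reticulum membrane, fell by 0.80, 0.73 and 0.74 on the log2 scale. Reads of these copies cannot be told apart with certainty, so they count as 1 observation at best. ERGIC1, of the compartment between the endoplasmic reticulum and the Golgi, fell by 0.43 on the log2 scale. Among 29 tested chaperones of the endoplasmic reticulum 1 rose and 1 fell. HSPA5, the main luminal chaperone, had 218 and 222 FPKM in knockdown cells and 187 and 186 FPKM in control cells (0.23 ± 0.03, adjusted p = 0.0341). CANX, the lectin chaperone calnexin, had 418 and 439 FPKM in knockdown cells and 504 and 525 FPKM in control cells (−0.26 ± 0.04, adjusted p = 0.0301).

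Further decreases concerned genes with no list among those fixed. USP46, a deubiquitinase, fell by 0.99 on the log2 scale, to 4.24 and 5.05 FPKM in detached knockdown cells, against 10.6 and 9.68 FPKM in detached control cells. IL27RA, a cytokine receptor subunit, had 14.03 and 12.9 FPKM in knockdown cells and 27.8 and 25.5 FPKM in control cells (−0.94 ± 0.08, limma, adjusted p = 0.00447). PADI2, an enzyme that converts arginine in proteins to citrulline, had 71.9 and 76.1 FPKM in knockdown cells and 120 and 134 FPKM in control cells (−0.77 ± 0.07, adjusted p = 0.00447). For each of these 3 genes both knockdown libraries lay below both control libraries, but none of the 99 called genes had overlapping libraries. The RNA-binding genes SAMD4B and PTBP3 fell by 0.96 and 0.75 on the log2 scale, and STAU1, which binds double-stranded RNA, by 0.55. RMDN3, a protein of the outer mitochondrial membrane, fell by 0.90, ISCA2, which assembles iron-sulfur clusters in mitochondria, by 0.79, and UROD, an enzyme of heme synthesis, by 0.60 on the log2 scale. BTBD1, a BTB domain protein, and ZDHHC3, which attaches palmitate to proteins, fell by 0.92 and 0.75.

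The lysosomal lists, which the title's autolysosome brings in, gave 2 calls, both lower. LIPA, the lysosomal acid lipase that digests cholesteryl esters and triglycerides, had 18.5 and 21.8 FPKM in detached knockdown cells, against 33.7 and 37.9 FPKM in detached control cells (−0.80 ± 0.10, limma, adjusted p = 0.0187). The groups do not overlap, but its call was lost without detached knockdown replicate 1 (adjusted p = 0.102), detached control replicate 1 (0.0767), detached control replicate 2 (0.155), and attached control replicates 1 (0.0523) and 2 (0.0519). LIPA was the only one of 32 tested lysosomal hydrolases to pass, and 22 of the 32 were lower at a median of −0.05 (range −0.10 to −0.03). LAMP2, which sits in the lysosomal membrane and takes part in its fusion with autophagosomes, had 57.3 and 55.5 FPKM in knockdown cells and 74.2 and 72.7 FPKM in control cells (−0.37 ± 0.05, adjusted p = 0.0341). Its call was lost without each of the 8 libraries in turn (adjusted p = 0.0536 to 0.213). It was the only call among 18 lysosomal membrane genes (median −0.04, range −0.08 to −0.04), and LAMP1, its close relative, had a log2 fold change of −0.13 ± 0.04 (adjusted p = 0.253).

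Major proteases of the lysosome gave no call. CTSB was at 125 and 118 FPKM in knockdown cells and at 133 and 133 FPKM in control cells (−0.13 ± 0.05, limma, adjusted p = 0.357). CTSL was at 315 and 311 FPKM in knockdown cells, against 286 and 289 FPKM in control cells, so that these cysteine proteases differ in sign. None of 16 subunits of the V-ATPase, the proton pump that acidifies the lysosome, passed the test (median 0.07, range 0.02 to 0.08). ATP6V1C1 stood higher at 53.2 and 52.3 FPKM in knockdown cells, against 44.7 and 44.1 FPKM in control cells (adjusted p = 0.112), and ATP6V0E1 lower at 71.6 and 77.2 FPKM, against 90.8 and 95.9 FPKM in control cells (adjusted p = 0.191).

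The 4 autophagy lists gave no call, though called genes such as EI24 and LAMP2, described above, stand outside them. None passed among 18 genes of initiation (median −0.04, range −0.06 to −0.02), 14 of the conjugation of LC3 and its relatives (median −0.01, range −0.05 to 0.01), 12 receptors (median −0.02, range −0.05 to 0.01) and 17 genes of fusion of the autophagosome with the lysosome (median 0.03, range 0.02 to 0.05). The member with the smallest p was KIAA0226, which encodes Rubicon, an inhibitor of late autophagy. It was at 19.0 and 18.5 FPKM in detached knockdown cells and 29.6 and 25.3 FPKM in detached control cells (−0.52 ± 0.11, limma, adjusted p = 0.113). SNAP47, a SNARE protein, was at 25.2 and 22.3 FPKM with the knockdown and at 22.4 and 21.6 FPKM in control cells (0.10 ± 0.08, adjusted p = 0.676). MAP1LC3B, which encodes the autophagosome protein LC3B, was at 42.5 and 43.4 FPKM in knockdown cells and at 38.9 and 38.9 FPKM in control cells (0.14 ± 0.07, adjusted p = 0.458). SQSTM1, the receptor p62, stood at 579 and 571 FPKM in knockdown cells, against 614 and 640 FPKM in control cells (−0.12 ± 0.04, adjusted p = 0.237). A value that missed the threshold does not show that the level was the same.

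Genes of adhesion and the cell surface included 3 calls among 27 tested genes of the focal adhesion plaque, the complex that ties integrins to actin. Of the 27, 21 were lower, with a median of −0.07 (range −0.09 to −0.04). Over all tested genes 0.737% were called and 50% were lower. ENAH, which promotes actin filament growth, had 62.4 and 59.8 FPKM in detached knockdown cells, against 98.7 and 96.4 FPKM in detached control cells (−0.67 ± 0.05, limma, adjusted p = 0.00258). VCL, the linker vinculin, had 176 and 174 FPKM in knockdown cells, against 221 and 227 FPKM in control cells (−0.35 ± 0.04, adjusted p = 0.0148). The actin-binding gene LASP1 fell by the same 0.35 on the log2 scale. In the integrin list, the receptors of the matrix, none of 10 passed, and neither did any of 21 YAP-TEAD targets, genes that respond to cell spreading. CD9, a tetraspanin of the cell surface, had 229 and 239 FPKM in knockdown cells and 367 and 351 FPKM in control cells (−0.61 ± 0.04, adjusted p = 0.002). DAG1, the matrix receptor dystroglycan, also fell (−0.34 ± 0.05), as did COL18A1, a basement membrane collagen (−0.59 ± 0.05). S100A6, a calcium-binding protein, fell as well (−0.41 ± 0.04).

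Cell contacts and growth factor receptors changed at single genes. CLDN1, a tight junction claudin, was the largest increase among the called genes, at 15.4 and 17.02 FPKM in detached knockdown cells, against 11.2 and 11.9 FPKM in detached control cells (0.46 ± 0.07, limma, adjusted p = 0.0403). It was the only call among 10 tested genes of tight junctions and desmosomes with a locus of their own (median 0.01, range −0.02 to 0.05). PVRL2, a nectin, fell by 0.41 on the log2 scale and was the only call among 9 genes of adherens junctions. Of 19 tested growth factor receptors 2 fell (median −0.10, range −0.12 to −0.07), where 0.662% of all tested genes fell. FGFR3, a fibroblast growth factor receptor, had 8.498 and 8.61 FPKM in knockdown cells, against 12.6 and 14.1 FPKM in control cells (−0.59 ± 0.09, adjusted p = 0.0375). DDR1, a receptor for collagen, had 116 and 119 FPKM in knockdown cells, against 144 and 140 FPKM in control cells (−0.27 ± 0.04, adjusted p = 0.0375).

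Metabolic lists held scattered calls. The desaturase SCD and the elongase ELOVL5, which shape fatty acids, fell by 0.26 and 0.30 on the log2 scale. They were 2 of 17 tested genes of fatty acid synthesis (median −0.11, range −0.14 to −0.05), where 0.662% of all tested genes fell. ASNS, the asparagine synthetase, had 124 and 125 FPKM in detached knockdown cells, against 99.0 and 94.2 FPKM in detached control cells (0.37 ± 0.04, limma, adjusted p = 0.0129). SLC7A5, the light subunit of a transporter of large neutral amino acids, went the other way. It had 97.5 and 85.5 FPKM in knockdown cells, against 141 and 136 FPKM in control cells (−0.59 ± 0.07, adjusted p = 0.0144). Both belong to 37 tested targets of ATF4, a transcription factor of amino acid stress. Of these 37, 29 were higher (median 0.13, range 0.08 to 0.18), while 50% of all tested genes were lower. The serine synthesis enzymes PHGDH and PSAT1 had log2 fold changes of 0.25 and 0.27 and did not pass (adjusted p = 0.0694 and 0.0726). None of 17 aminoacyl-tRNA synthetases passed (median 0.09, range 0.08 to 0.10).

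RPS12 and TPT1, both tied to translation, were among the 10 genes that rose. RPS12, a protein of the small ribosomal subunit, had 2604 and 2555 FPKM in detached knockdown cells, against 2303 and 2239 FPKM in detached control cells (0.18 ± 0.03, limma, adjusted p = 0.0375). It was the only call among 27 small subunit genes, 26 of which were higher (median 0.09, 0.04 to 0.10 under the other scalings). Of 35 large subunit genes none passed and 31 were higher. Their median was 0.07 (range 0.06 to 0.07, and 0.05 to 0.07 under the other scalings). TPT1, a translationally controlled protein kept in the list of translation factors, had 955 and 942 FPKM in knockdown cells, against 810 and 815 FPKM in control cells (0.22 ± 0.03, adjusted p = 0.0201).

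ZFAS1, SNHG5, C6orf48 and GAS5 carry small nucleolar RNAs in their introns, a trait noted after their values were seen. ZFAS1 had 97.0 and 88.9 FPKM in detached knockdown cells and 67.9 and 68.8 FPKM in detached control cells (0.44 ± 0.06, limma, adjusted p = 0.0227). SNHG5 had 170 and 163 FPKM in knockdown cells and 126 and 128 FPKM in control cells (0.39 ± 0.05, adjusted p = 0.0129). In C6orf48 the levels were 1436 and 1394 FPKM in knockdown cells and 1155 and 1109 FPKM in control cells (0.32 ± 0.04, adjusted p = 0.0137). GAS5 is listed in 1 locus with SNORD78, itself such an RNA, and the locus SNORD78|GAS5 rose by 0.39 ± 0.05 (adjusted p = 0.0158). For each of these 4 loci both knockdown libraries lay above both control libraries. A lack of overlap held for all 99 called genes and for 44% of all tested genes.

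**Figure D2:**
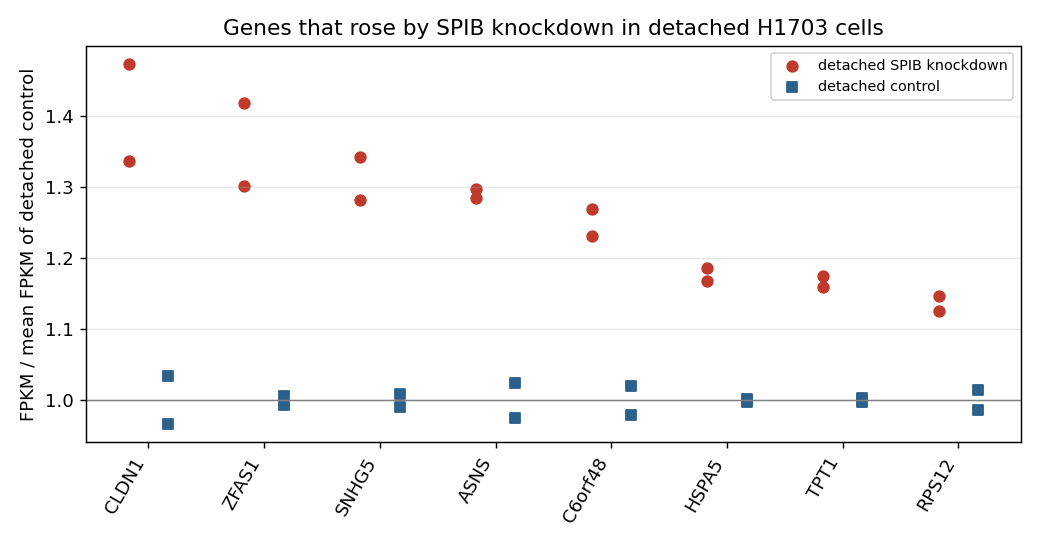
FPKM of each detached library divided by the mean FPKM of the 2 detached control libraries, for 8 of the 9 genes with a symbol of their own that rose. Red circles are detached SPIB-knockdown libraries and blue squares are detached control libraries, and the axis does not start at 0. Both circles lie above both squares for each gene, and the mean of the knockdown libraries runs from 140.5% of the control mean in CLDN1 to 113.6% in RPS12.

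Lists of cell death, stress and growth gave few calls or none. No gene passed among 2 anti-apoptotic and 10 pro-apoptotic members of the BCL2 family, 22 caspases and their inhibitors, 34 genes of S phase, 29 of mitosis, 17 p53 targets, 14 FOXO targets, 18 glycolytic enzymes and 22 genes of the interferon response. PMAIP1, the pro-apoptotic gene for NOXA, stood at 17.6 and 16.4 FPKM in detached knockdown cells and at 12.2 and 11.2 FPKM in detached control cells without passing (0.50 ± 0.12, limma, adjusted p = 0.126). CDKN1A, the p53 target that encodes the cell cycle inhibitor p21, stood at 38.1 and 41.7 FPKM in knockdown cells and at 28.5 and 31.1 FPKM in control cells (0.41 ± 0.07, adjusted p = 0.0694). For both of these genes the groups do not overlap, as holds for 44% of tested genes. EI24, the p53-induced gene described above, stands outside the list of p53 targets and fell by 0.87 on the log2 scale. Interferon genes had the lowest median of any list with 9 or more tested members, at −0.14 (range −0.15 to −0.14), with 18 of 22 lower. HSPB1, a small heat shock protein, was the only call among 20 heat shock genes, at 656 and 673 FPKM in knockdown cells, against 793 and 824 FPKM in control cells (−0.28 ± 0.04, adjusted p = 0.0384).

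**Figure D3:**
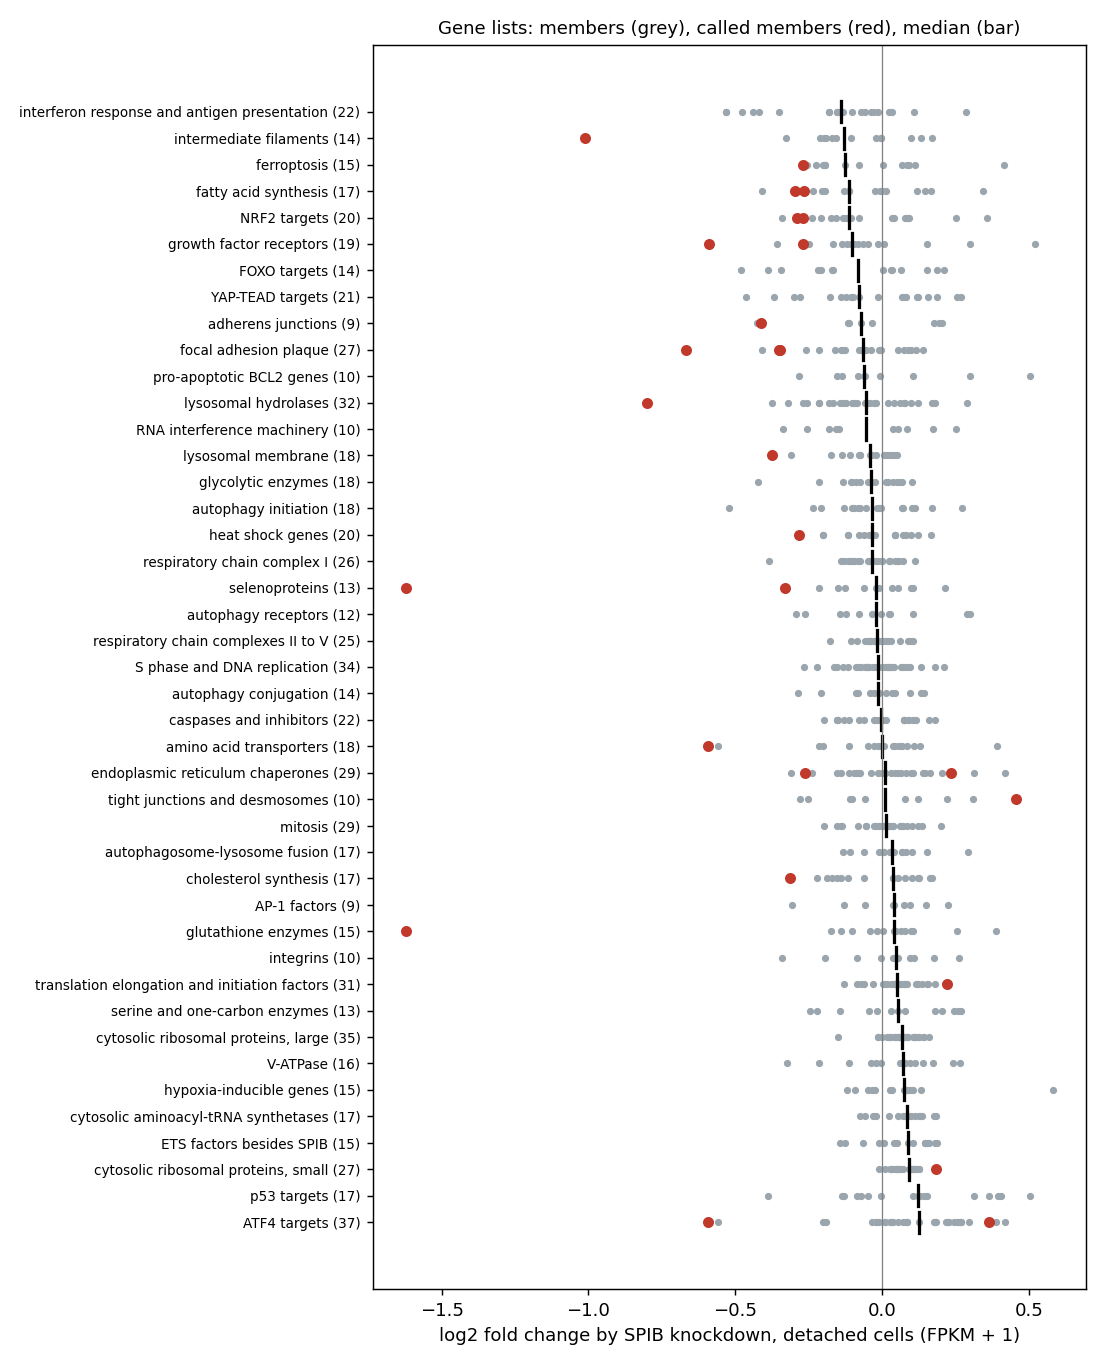
Log2 fold change by SPIB knockdown in detached cells, on log2(FPKM + 1), for the tested members of 43 gene lists, with the number tested in brackets. Grey points are members without a call, red points are called members and black bars are list medians, sorted from the lowest median, −0.14 for interferon genes, to the highest, 0.13 for ATF4 targets. Calls are single genes such as GPX4 at −1.62, INA at −1.01 and LIPA at −0.80, which lie apart from the rest of their list, while others, such as PVRL2 at −0.41 and SCD at −0.26, lie within the range of the uncalled members.

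Attached cells with the same knockdown, which share no library with the detached ones, had 248 calls among 13438 genes (1.85%), 86 higher and 162 lower. That count too moved with each library: leaving out replicates 1 and 2 in turn gave 143 and 144 calls for the detached knockdown, 114 and 115 for the detached control, 75 and 72 for the attached knockdown, and 37 and 42 for the attached control. Of the detached calls 69 were also called in attached cells, all in the same direction, which is 69.7% of the detached calls and 27.8% of the attached ones. All 99 had the same sign in attached cells. Conversely 227 of the 248 genes called in attached cells had the same sign in detached cells. The log2 fold change of GPX4 was −1.62 in detached cells and −1.68 in attached cells, that of EI24 −0.87 and −0.89, and that of PADI2 −0.77 and −0.77. Over the 7500 genes with a mean of 10 FPKM or more, the detached and attached log2 fold changes had a Pearson correlation of 0.458 across genes, which are not independent replicates.

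The remaining 30 detached calls, 26 lower and 4 higher, missed the threshold in attached cells. This does not show that they differed between states. The difference between the effect in detached cells and the effect in attached cells passed the limma test in 0 of 13438 genes (0%), with a smallest adjusted p of 0.214. At an unadjusted p under 0.05 it did so in 898 genes, of which 24 are among the 99 detached calls and 16 among the 30. With 1 library left out it passed in 0 to 3 genes. In size, 77 of the 99 changes were larger in detached than in attached cells, but the 99 were selected on their detached values.

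Single genes show the range. ZDHHC3 had 15.2 and 16.9 FPKM in detached knockdown cells, against 26.2 and 29.3 FPKM in detached control cells, and 20.6 and 19.0 FPKM in attached knockdown cells, against 23.5 and 24.5 FPKM in attached control cells. Its effect was larger in detached cells by a difference of −0.49 on the log2 scale (limma, adjusted p = 0.602). DDR1 had a log2 fold change of −0.27 in detached cells and −0.03 in attached cells (difference −0.24, adjusted p = 0.602). SEPT2 fell in both states, by 0.87 on the log2 scale in detached cells and by 0.65 in attached cells (difference −0.22, adjusted p = 0.602). The inhibitor of differentiation ID3 fell less in detached cells, by 0.35 on the log2 scale, than in attached cells, by 0.58 (difference 0.23, adjusted p = 0.639). JUN, a subunit of the AP-1 factor, was at 31.1 and 31.3 FPKM in detached knockdown cells, against 27.6 and 28.5 FPKM in detached control cells, and passed only in attached cells, at 48.3 and 50.6 FPKM with the knockdown, against 29.3 and 29.4 FPKM in control cells (difference −0.58, adjusted p = 0.375). None of these differences passed the test.

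**Figure D4:**
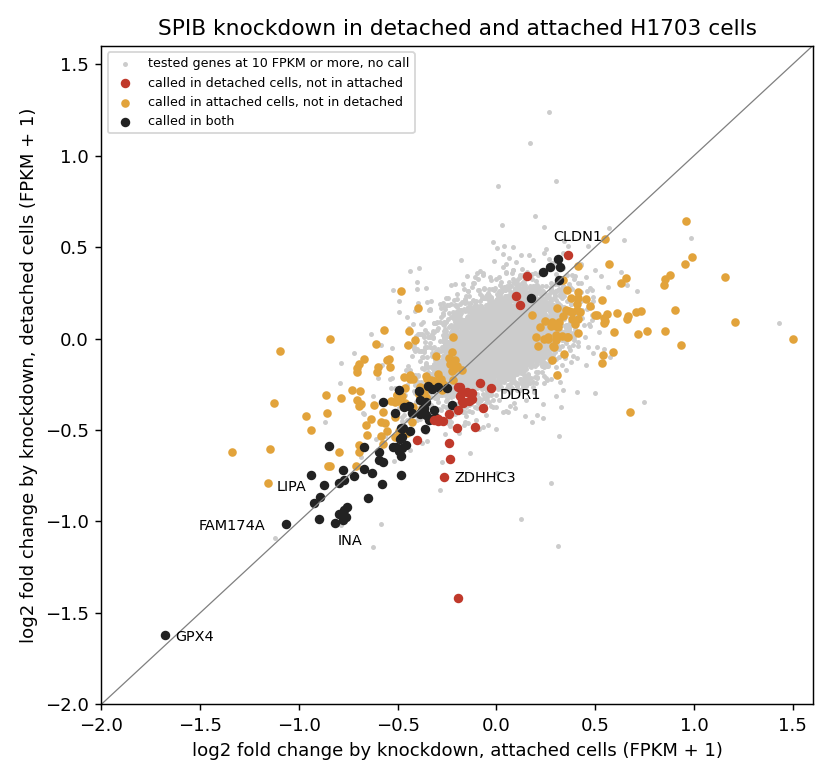
Log2 fold change by SPIB knockdown in detached cells (y axis) against that in attached cells (x axis), both on log2(FPKM + 1), with the line of equal effects. Red points were called in detached and not in attached cells, orange points in attached and not in detached cells, black points in both, and grey points are uncalled genes at 10 FPKM or more, with 10 of the 7522 plotted genes outside the axes. GPX4 lies near the line, at −1.62 in detached and −1.68 in attached cells, while ZDHHC3, at −0.75 in detached and −0.27 in attached cells, lies below it, and the red point at the lowest height is the clone-named locus near 0 FPKM.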

How the data were processed

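RNA of 8 libraries of H1703 cells was sequenced, 2 in each of 4 groups, and the 4 detached libraries carry the comparison. The authors deposited FPKM values in 1 table per library, made with HISAT, Cuffnorm and genome build hg19, per the submitters' processing notes. The sources used here give no versions, strandedness or annotation. Each table lists 28590 loci, of which 1961 merge several symbols, whose values cannot be split, and 1673 have no symbol. Loci of 1 symbol were summed, which left 27204. A 0 can be a failed estimate: 54 loci have a 0 in some library beside 10 FPKM or more elsewhere, and they stayed in. FPKM holds no read totals, so absolute depth is unknown, and low genes are measured better in the deeper libraries.

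Genes that reached 1 FPKM in 2 or more of the 8 libraries were tested. They number 13438, with 1642 merged loci and 333 that lack a symbol. Values were taken as log2(FPKM + 1) and fitted with limma 3.58.1 in R 4.3.3, with 1 mean per group and an intensity trend (4 residual and a median of 3.42 prior degrees of freedom). The contrasts were knockdown against control in detached cells, the same in attached cells, and the first minus the second. A gene was called at a Benjamini-Hochberg adjusted p under 0.05, and "rose" and "fell" are used of called genes. The fit was checked on simulated data. Other pseudocounts (0.5 and 0.1), filters, scalings, a replicate block, no trend, fewer libraries and each library left out were tried.

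The members, the 51 gene lists and the tests were chosen with earlier results of these data known. Named genes are all that rose, the 20 lowest with a symbol of their own, called members of lists or else up to 2 members with the smallest p, genes called in both states, and SPIB, SNAP47, MAP1LC3B, SQSTM1, LAMP1, LAMP2 and CTSB. TXNRD1, SLC7A11, CTSL, TP63, the markers listed at 0, the merged loci of FTL, GAS5 and KRT17, and RP11-490M8.1 fall outside the rule. They were picked with their values in view. A few genes named by the rule are not reported here. Promoters were matched by symbol to RefSeq on GRCh38.p14, and no coordinate was carried between builds.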

Additional observations from a re-analysis of the deposited data

Results flagged for a closer look

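SNAP29, a SNARE protein that joins autophagosomes to lysosomes, had values of opposite sign in the 2 states, with libraries that do not overlap in either. In detached cells such a lack of overlap holds for 44% of tested genes. It had 23.4 and 23.8 FPKM in detached knockdown cells, against 26.1 and 25.1 FPKM in detached control cells, and 28.1 and 29.1 FPKM in attached knockdown cells, against 25.0 and 26.9 FPKM in attached control cells. The knockdown effect in detached minus attached cells was −0.25 ± 0.09 on the log2 scale (limma, unadjusted p = 0.0267, adjusted p = 0.691), so the difference did not pass the test. Neither single effect passed either (adjusted p = 0.559 in detached and 0.33 in attached cells).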

How the results depend on the processing

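The 99 calls in detached cells became 98 and 101 with pseudocounts of 0.5 and 0.1, 146 with a filter at 5 FPKM, 61 with no filter on low values, 89 after quantile normalization, 99 after median of ratios scaling, 102 with loci of 1 symbol kept apart and 26 without an intensity trend. A fit to the 4 detached libraries alone gave 6 calls, 5 of them shared with the 99 (GPX4, INA, SEPT2, TMED2 and ASPH). With the replicate block, 70 genes were called, 64 of them among the 99; 18 named calls then missed the 0.05 threshold, among them CLDN1, ZFAS1, HSPA5, RPS12, LAMP2, FGFR3, DDR1, SCD, ELOVL5, FTH1, SEP15 and HSPB1 (adjusted p = 0.0505 to 0.0699). The labels do not say that the numbers pair samples. Deviations of same-numbered libraries correlated at 0.267 between the detached groups, at 0.261 and 0.174 between the attached control and the detached knockdown and control, and at −0.185, −0.185 and −0.139 in the pairs with the attached knockdown. A crossed replicate block, added after seeing the data, gave 65 calls. Leaving out 1 library gave 10 to 69 calls. In attached cells the 248 calls became 198 with the replicate block, 110 with no filter, 135 with the crossed replicate block, 66 without a trend, 28 with the 4 attached libraries alone and 37 to 144 with 1 library left out. A left-out library leaves a group with 1 library, which is assumed to vary like the others. The difference between states passed in 0 genes under every setting other than leaving out a library, which gave 0 to 3. Signs turned for RPL30, −0.013 after quantile normalization, and, with 1 library left out, for BCL2L1 (−0.081 to 0.027 over the left-out libraries), SOX2 (−0.17 to 0.104), LYZ (−0.956 to 0.518) and CSF1R (−0.188 to 0.143), none of them called. The cause of these changes was not tested. Genes near 1 FPKM are limited by depth.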
